A study of Homo sapiens with 19 samples.

Results

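The activin and inhibin subunit genes and the genes of the follistatins that bind their products were followed through the first days of a human embryonic stem cell (hESC) differentiation: INHBA, INHBB, INHBC, INHBE, INHA, FST and FSTL3. They were chosen by name, as the probes whose RefSeq transcript belongs to one of these symbols, and make 7 of the 20503 genes named on the array, with 1 probe each. The choice was made with their courses in these arrays already known, so their signals are given as a description and without a test.

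Activins are dimers of β subunits and inhibins pair the α subunit with a β subunit. Activin A is made from the product of INHBA and activin B from that of INHBB, and both signal through type II and type I receptor kinases to SMAD2 and SMAD3. Inhibins, which need the product of INHA, occupy the type II receptors without activating them, while follistatin (FST) and follistatin-like 3 (FSTL3) wrap around activins and keep them from the receptors. In hESCs, activin or NODAL signalling acts together with fibroblast growth factor to maintain the undifferentiated state, and fibroblast feeder layers are a known source of activin A.

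KhES-3 cells, an established hESC line, were moved to low-attachment dishes with a serum-free medium for brown adipocyte (BA) induction that held IGF-II, BMP4, VEGFA, KITLG, FLT3LG and IL-6. RNA was taken at 3 h and 4 h, then every 2 h up to 16 h, every 4 h up to 36 h and every 6 h up to 72 h, and each time was measured on 1 one-colour array of the same line under the same cocktail, so there were no replicates and no uninduced sample was analysed here. The sample labels describe stock cultures on irradiated mouse fibroblasts, whereas the methods of the study describe a feeder-free culture. The 19 arrays lay on 3 slides: 3 to 12 h on the first, 14 to 42 h on the second and 48 to 72 h on the third, so a step between 12 and 14 h or between 42 and 48 h cannot be told apart from a change of slide.

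The signal given below is the scanner software's processed signal after each array was brought to the same 75th percentile, 871. A probe was called well above background when that software flagged it so. The share of probes well above background ran from 49.6% to 64.7% with a median of 61.0%, and was lowest at 14 h (49.6%), 16 h (52.0%) and 72 h (53.8%). Times were also pooled into 7 windows that do not cross slides, and a window's signal is the geometric mean of its 2 or 3 arrays. Signals of different probes are not comparable as RNA amounts, so each gene is set only against itself, or the change of one gene against the change of another. The exception is the summed signals of cell type markers given below, in which the brightest probes weigh most.

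Across the 7 genes, none was at least 2-fold higher at 60 to 72 h than at 3 to 6 h, against 7.3% of the 16694 genes tested, and 2 (INHBA and INHBB) were at least 2-fold lower, against 5.86% of all genes. INHBA passed this mark narrowly (log2 -1.02). It did not pass without the 6 h array (-0.97), without the 72 h array (-0.82) or under normexp background correction with quantile normalization (-0.95). FST passed it after scaling to the spike-in RNA (-1.14). The median difference between these windows was -0.31 on the log2 scale, beside -0.05 for all genes. The highest array exceeded the lowest by at least 2-fold for 5 of the 7, where 54.1% of all genes did so, and by at least 4-fold for INHBB alone, where 13.8% did. The end points hide most of what these genes did: INHBB went down and came partly back, INHA was highest in the middle, FSTL3 was lowest in the middle, and INHBA declined from the first windows to those of 32 to 54 h.

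INHBB (NM_002193), the β subunit of activin B and inhibin B, had the widest range of the 7 genes. In the order of time, its signals on the first slide were 1047, 534, 166, 93.9, 65.0 and 52.0. Every array of the first slide was thus lower than the one before it, and the decline began within the earliest arrays. From 3 to 12 h the signal was 20.1-fold lower (log2 change -4.33). No other gene among the 16694 was lower by as much between these 2 arrays, although under normexp background correction with quantile normalization the Notch target HES5 was lower by more (-3.36 against -3.06 for INHBB). Between the windows of 3 to 6 h and 8 to 12 h the INHBB signal went from 453 to 68.2, 6.64-fold lower (log2 -2.73). Over all genes 1.01% were at least 2-fold lower, and only EGR4, an immediate early gene, was lower by more than INHBB. Without the 3 h array INHBB ranked 7 among all genes by this difference, at -2.13. Under normexp with quantile normalization the difference between the full windows was -1.87 for INHBB, and HES5 (-2.06) was lower by more. The choice of windows compared here and below was made after the courses had been seen.

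On the second slide INHBB was not well above background at 14 h (19.9) and at 16 h (46.6), the 2 arrays with the fewest probes above background. From 20 h onward that slide gave 93.9, 90.5, 82.1, 114, 118 and, at 42 h, 237. The third slide opened with 199.7 and 305 (48 and 54 h) and closed with 186, 134 and 85.6 (60 to 72 h). The second high was therefore 5.87-fold above the 12 h array and remained below both the 3 h and the 4 h arrays. Between 8 to 12 h and the pair of 48 and 54 h the change was 3.62-fold upward (log2 1.86, but 1.08 under normexp with quantile normalization), where 4.98% of all genes were at least 2-fold higher and 111 of 16694 genes differed upward by as much or more. From 54 to 72 h the signal was 3.57-fold lower. The 60 to 72 h window as a whole was 3.51-fold below that of 3 to 6 h (log2 -1.81), and the difference was -1.21 without the 3 h array.

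The direction of INHBB thus differed from slide to slide when each was fitted by itself. The slope of log2 signal per hour was -0.477 ± 0.0529 (SE, 6 arrays) on the first slide, 0.0942 ± 0.0173 (8 arrays) on the second and -0.0605 ± 0.0163 (5 arrays) on the third. Without the 14 and 16 h arrays, where INHBB was not well above background (left out after seeing the data), the slope on the second slide was 0.0579 ± 0.0153 (6 arrays). Each of these slopes comes from the arrays of a single slide. The return between 8 to 12 h and the pair of 48 and 54 h crossed both changes of slide. A straight line over the 19 arrays accounted for 0.249% of the variance, a cubic for 67.5%.

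INHBA (NM_002192), the β subunit of activin A, cleared the background flag in each of the 19 arrays. In time order its signals were 1459, 1461, 1629, 1395, 1197 and 1061 on the first slide. They were 993, 1229, 1088, 917, 939, 929.8, 832 and 761 on the second, and 763, 800.4, 903, 811 and 565 on the third, so that the highest came at 6 h and the lowest at 72 h. The window signals went from 1515 through 1210, 1099, 928, 838 and 782 to 745, so each window was below the one before it, the last of them only through the 72 h array (856 at 60 and 66 h), and the 60 to 72 h arrays did not overlap those of 3 to 6 h. The difference between these windows was 2.03-fold downward (log2 -1.02). The 72 h array, one of the 3 with fewest probes above background, carried part of this, and without it the difference was -0.82. The slope was -0.0157 ± 0.00206 per hour over all arrays and pointed down on each slide (-0.0538 ± 0.0151, -0.0189 ± 0.00483 and -0.0141 ± 0.0102). On the third slide the slope turned upward without the 72 h array, to 0.00726 ± 0.00982 (4 arrays, 72 h left out after seeing the data).

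The β subunits of activin A and activin B therefore did not change in step. Taken as a ratio within each array, INHBB over INHBA stood at -2.41 on the log2 scale at 8 to 12 h relative to 3 to 6 h, and at -1.79 on the 20 h array, the only one of the 14 to 20 h window with INHBB above background. By 48 and 54 h the ratio had returned to 0.08 above its early mean, though the early arrays themselves spanned -1.55 to 1.26 around that mean. At 60 to 72 h it was at -0.79. A factor applied to a whole array leaves these ratios as they are.

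INHBC (NM_005538) and INHBE (NM_031479) code for the βC and βE subunits, best known from liver, and lie next to each other on chromosome 12, 3244 bp apart with no gene between them in the RefSeq table. INHBC exceeded background on every array, between 100.1 at 3 h and 157 at 42 h, with a median of 132. It stood at 111 at 3 to 6 h, 103 at 8 to 12 h, 137 at 14 to 20 h, 155 at 32 to 42 h and 141 at 60 to 72 h. The arrays of the first slide (100.1 to 121) overlapped those of the second (117 to 157) only through the 24 h array, so the largest shift coincided with the change of slide and cannot be told apart from it. INHBC was 0.34 higher on the log2 scale late than early, but -0.03 after scaling to the array median and -0.30 after scaling to the spike-in RNA.

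INHBE was lowest at 16 h (72.1), highest at 4 h (148) and had a median of 109.8. Its window signals were 132, 96.4, 86.5, 119, 103, 132 and 107, a course with no steady direction: a line explained 1.06% of its variance and a cubic 25.3%. The 14 to 20 h window was 1.53-fold below that of 3 to 6 h, with no overlap between these arrays. Despite their adjacency, the correlation of INHBC with INHBE over the 19 arrays was 0.04.

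INHA (NM_002191), the α subunit that turns a β subunit into an inhibin, took a course of its own. On the first slide its signals were, in time order, 62.5, 55.7, 146, 63.5, 64.5 and 69.8. The 6 h array stood 2.46-fold above the mean of its neighbours on the log scale, and 0.491% of all genes stood out upward as far on that array. The second slide gave 107, 87.5, 115, 172, 167, 176, 166 and 103 for its 8 times. The 4 arrays from 24 to 36 h were thus above all other arrays, the 6 h array included. On the third slide the signals were 133, 98.1, 77.1, 80.6 and 46.4, the last (72 h) not well above background.

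INHA was 2.12-fold higher at 24 and 28 h than at 3 to 6 h (log2 1.08), where 5.45% of all genes were at least 2-fold higher. The change was 1.52 without the 6 h array and 0.51 under normexp with quantile normalization. INHA was then 2.56-fold lower at 60 to 72 h (log2 -1.36), where 3.65% of all genes were at least 2-fold lower. This fall was -0.79 under normexp with quantile normalization and -2.23 with spike-in scaling. Of the 3 late arrays 2 were above background, and without the 72 h array, which was not, the fall was -1.10. The late and early windows differed by -0.27, and by 0.16 without the 6 h array, so no direction can be given for INHA over the whole course. Against INHBA within the same arrays, INHA was 3.46-fold higher at 24 and 28 h than early (log2 1.79) and 2.78-fold at 48 and 54 h. At 60 to 72 h INHA was 1.68-fold higher, with its 72 h signal not well above background. Against INHBB it was 11.1-fold higher at 24 and 28 h (log2 3.48), though the early arrays spanned -1.56 to 2.32 around their mean, and the figure was 6.49-fold without the 3 h array and 24.9-fold without the 6 h array. INHA over INHBA had been 1.03-fold its early level at 8 to 12 h. From 12 to 14 h, across the change of slide, INHA went up 1.54-fold. Within slides the slopes of INHA were 0.000174 ± 0.0540, 0.0157 ± 0.0132 and -0.0555 ± 0.0128 per hour. Relative to both activin β subunits, the INHA transcript was thus higher at 24 and 28 h than at 3 to 6 h. The part of this gain in the step from 12 to 14 h cannot be told apart from the change of slide.

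FST, the main soluble antagonist of activins, was well above background throughout, at 1642 to 3232 with a median of 2302. It was 3220.4 at 3 h and 3232 at 4 h, 2544 at 6 h, and 2302 to 2385 between 8 and 12 h. The highest values were therefore those of the earliest 2 arrays, and the slope on the first slide was -0.0586 ± 0.0126 per hour. Later windows stood at 2460, 2377, 2008, 2076 and 2111, with 2682 at 66 h and 1642 at 72 h inside the last. The late window was 1.41-fold below the early one (log2 -0.50), and overlapped it through the 66 h array. The difference was -0.32 without the 72 h array. The probe belongs to transcript NM_013409, and which of the follistatin isoforms it reads besides that was not analysed here.

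FSTL3 (NM_005860), a follistatin relative that lacks the heparin-binding stretch of follistatin, was higher at the end of the course than in its middle. The first slide gave, in time order, 565, 553, 513, 454, 473 and 457. On the second slide it lay between 374 at 16 h and 497 at 32 h, with 416 at 42 h. On the third it went through 602, 676, 676, 858 and 879.6, so each of these 5 arrays was above all 14 earlier ones. The signal was 1.40-fold lower at 14 to 20 h than at 3 to 6 h and was then 2.06-fold higher at 60 to 72 h (log2 1.04, but 0.30 with spike-in scaling), where 6.34% of all genes were at least 2-fold higher. Part of this lay in the 1.44-fold step between 42 and 48 h, across the change of slide. Within slides the slopes were -0.0364 ± 0.0120, 0.00708 ± 0.00564 and 0.0240 ± 0.00688 per hour. The late window was 0.56 above the early one, but -0.09 with spike-in scaling.

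INHBA was lower late than early relative to both follistatins. INHBA over FST was 1.44-fold lower at 60 to 72 h than at 3 to 6 h and INHBA over FSTL3 2.99-fold lower (log2 -1.58), the latter being already 2.28-fold lower at 48 and 54 h. FSTL3 over FST was 2.08-fold higher late than early. Over the 19 arrays the correlation was 0.79 between INHBA and FST, -0.16 between FST and FSTL3 and -0.69 between INHBA and INHBC; these arrays share a time course, so the values only describe how alike the courses were.

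Values at 2 of the late arrays moved together with other features of those arrays. At 66 h, where FST stood 1.43-fold above its neighbours, the summed signal of 4 mesoderm markers (MESP1 with the brightest probe on average) was 1722, against 456 at 60 h and 623 at 72 h, and that of 8 hepatocyte markers was 7897 against 3319.8 and 3788. At 72 h, where INHBA and FST were lowest, the summed signal of 10 fibroblast markers was at its highest, 47758, with 27551 at 48 h as its lowest. THY1 alone made 33070 of this sum at 72 h and 13720.2 at 48 h, and the other 9 markers together gave 14688 and 13830.4. The part of these in the values of the 7 genes was not tested.

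The promoter sequences of the genes for the activin A and B subunits, the inhibin α subunit and follistatin are shown to let their base composition be seen. They are the 250 bases before the transcription start in the RefSeq promoter table (GRCh38.p14; for INHBA that start lies inside the gene's full span, which begins further upstream), 5′ to 3′ on the gene's own strand, with matches to the searched motifs in capitals on either strand. Those of INHBB (chr2:120345886-120346135, plus strand), INHBA (chr7:41703091-41703340, minus strand), INHA (chr2:219572060-219572309, plus strand) and FST (chr5:53480379-53480628, plus strand) read:
INHBB: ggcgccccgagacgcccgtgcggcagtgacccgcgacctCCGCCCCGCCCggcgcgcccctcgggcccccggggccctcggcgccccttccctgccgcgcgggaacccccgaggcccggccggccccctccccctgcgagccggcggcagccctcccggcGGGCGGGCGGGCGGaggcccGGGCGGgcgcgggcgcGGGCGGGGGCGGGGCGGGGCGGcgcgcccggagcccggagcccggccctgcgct
INHBA: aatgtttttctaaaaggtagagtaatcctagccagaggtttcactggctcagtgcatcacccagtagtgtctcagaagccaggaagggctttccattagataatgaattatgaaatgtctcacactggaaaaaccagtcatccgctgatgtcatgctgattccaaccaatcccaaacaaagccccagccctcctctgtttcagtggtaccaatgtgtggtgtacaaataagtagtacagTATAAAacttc
INHA: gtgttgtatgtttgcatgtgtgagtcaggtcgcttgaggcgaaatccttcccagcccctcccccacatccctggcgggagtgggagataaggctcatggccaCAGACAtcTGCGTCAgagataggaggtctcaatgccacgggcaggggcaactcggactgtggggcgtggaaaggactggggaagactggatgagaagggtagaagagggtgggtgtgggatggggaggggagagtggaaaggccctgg
FST: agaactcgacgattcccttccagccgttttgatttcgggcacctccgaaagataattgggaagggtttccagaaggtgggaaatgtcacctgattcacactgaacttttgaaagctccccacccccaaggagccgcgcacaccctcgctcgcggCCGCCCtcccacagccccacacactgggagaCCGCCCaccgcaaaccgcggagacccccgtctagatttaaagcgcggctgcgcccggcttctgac
The genes themselves lie at chr2:120346136-120351803 (INHBB), chr7:41685114-41705406 (INHBA), chr2:219572310-219575711 (INHA), chr5:53480629-53487134 (FST), chr19:676392-683385 (FSTL3), chr12:57434784-57452062 (INHBC) and chr12:57455307-57458025 (INHBE).

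The promoters of the 2 activin β subunit genes differed in base composition. The INHBB window was 89.6% G or C with 46 CpG dinucleotides, the INHBA window 42.8% with 1, and the median over 27305 promoters was 58%. The INHBB window held 10 overlapping or neighbouring matches of GGGCGG, the GC box, which 42.3% of all promoters hold at least once, and those of FST and FSTL3 held 2 and 4. INHBA held TATAAA (11.1% of promoters) at bases 11 to 6 before the start, on the gene's own strand. FSTL3 held it on the opposite strand, at bases 29 to 24. INHA held CAGACA (13.6%), a SMAD-binding letter string, and TGCGTCA (2.12%), a variant of the cyclic AMP response element that was added to the search after the sequence had been read. TGACGTCA (1.77%), the full cyclic AMP response element, and TGACGT (7.42%), which lies within it, were in none of the windows. The SMAD palindrome GTCTAGAC (0.176%), the FOXH1 string AATNCACA (2.83%) and the stress response element TGATGNAA (3.19%) were also in none of the 6 windows searched, INHBC included; these are matches of letters only.

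The machinery around these ligands was then examined on 63 genes in 8 lists, of which 62 passed the filter on background. A gene was counted as rising or falling when the slope of its log2 signal on hours passed an adjusted p of 0.05 in limma, over all probes; 24.9% of all genes rose and 30.3% fell by this rule. Of the 62 genes, 10 rose, 22 fell and 30 were not called. A course was called curved when the quadratic and cubic terms passed the same threshold, which 34 of the 62 genes and 52.9% of all genes did. With the slide as a block, which leaves only the trends within slides, 3 rose, 6 fell and 17 were curved, where 4.33%, 7.46% and 26.2% of all genes did so. Of the 32 genes called for slope, all kept their direction with the block and 14 had a slope at least as large, but the median SE went from 0.00262 to 0.00690 per hour. The number rising also rested on the scaling: it was 3 after scaling to the array median and 1 (FSTL1) after scaling to the spike-in RNA.

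**Figure D1:**
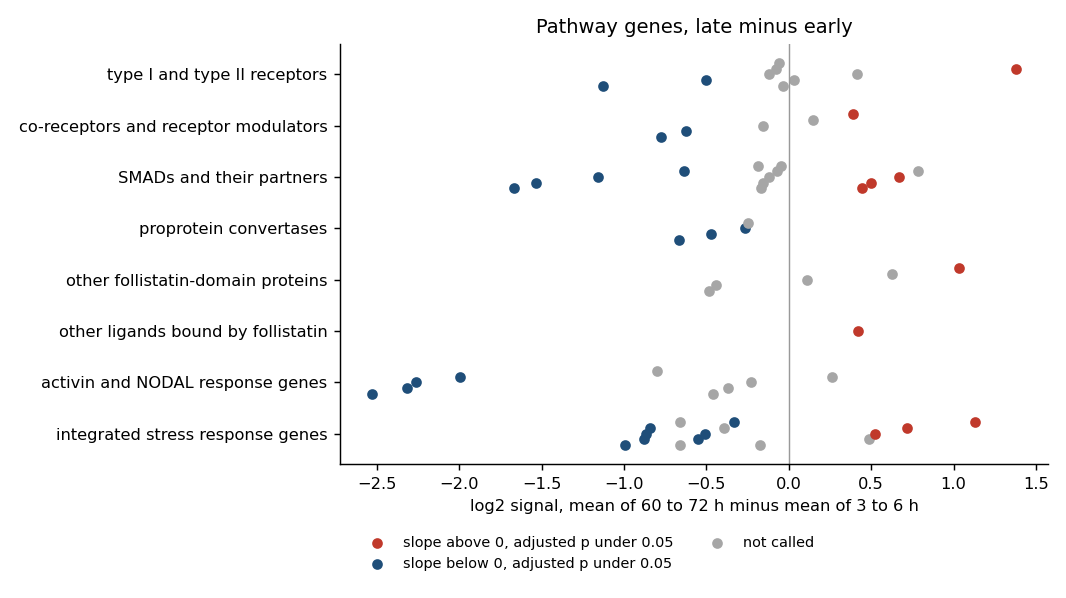
Log2 signal at 60 to 72 h minus that at 3 to 6 h for each tested gene of the 8 lists, coloured by the call of its slope on hours. LEFTY1, LEFTY2 and CER1 (the last above background on only 1 late array) make the 3 leftmost blue points, and ACVR1C (1.38), DDIT3 (1.13) and FSTL1 (1.04) the rightmost red ones; with spike-in scaling FSTL1 alone among the red points passed the test.

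Among 9 receptors, 1 rose, 2 fell and 4 were curved. ACVR1C, the type I receptor ALK7 used by activin B and NODAL, went from 162 at 3 to 6 h to 422 at 60 to 72 h (log2 1.38, limma adjusted p = 1.77e-05), with 7 window signals that each exceeded the one before; its adjusted p was 0.138 with the slide as a block, where its slope per hour was 0.0188 against 0.0190 without the block, and 0.0668 with spike-in scaling. TGFBR1, the type I receptor of TGF-β, fell from 224 to 103 (log2 -1.13, limma adjusted p = 3.67e-06; 0.00924 with the slide block). ACVR1, the type I receptor ALK2, fell by 0.50 on the log2 scale and lost its call with the slide block (limma adjusted p = 0.497). ACVR1B, the main type I receptor of activin A, and the type II receptor ACVR2A were not called for slope (differences of -0.04 and -0.12) but were curved, as was TGFBR2. ACVR2B, the other activin type II receptor, was neither, and stayed between 4842 and 5806.

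Of the 5 co-receptors and modulators, TDGF1 (CRIPTO in the RefSeq table), which presents NODAL to its receptors, fell by 0.63 on the log2 scale (limma adjusted p = 0.00696), most of it before 24 h, when its signal had gone from 41991 at 3 h to 23735. CFC1, a related co-receptor above background on 12 of 19 arrays, fell by 0.77 and TGFBR3L, a relative of betaglycan that binds inhibin B, rose by 0.39; each was just past the threshold (limma adjusted p = 0.042 for both) and neither call was stable to single arrays. CFC1 lost its call without any one array of the first slide or the 42 or 72 h array (limma adjusted p up to 0.0823), and TGFBR3L without the 14 h array or any one of the third slide (up to 0.128). With the slide as a block TDGF1 lost its call (limma adjusted p = 0.623), while CFC1 (0.0409) and TGFBR3L (0.0244) kept theirs. Betaglycan itself (TGFBR3), the inhibin co-receptor, was not called (0.15) and was above background on 14 arrays. BAMBI, a pseudoreceptor that blocks type I receptors, was not called for slope but had the smallest p for curvature in the list (limma adjusted p = 1.2e-07): 44281 at 3 to 6 h, 19589 at 24 and 28 h and 39722 at 60 to 72 h.

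Of 14 SMADs and partners 3 rose, 4 fell and 10 were curved. SMAD7, the inhibitory SMAD that activin and TGF-β induce as feedback, was 2866 at 3 to 6 h, 1639.5 at 8 to 12 h, 1115 at 14 to 20 h and 719.6 at 24 and 28 h, and ended at 903. Its late to early difference was -1.67 (limma adjusted p = 0.00368). PMEPA1, another feedback inhibitor, went from 1452 to 365 at 24 and 28 h and 502 late (log2 -1.53, limma adjusted p = 0.00621), and SMAD3, a carrier of the activin signal, from 1472 to 645 and 661 (log2 -1.16, limma adjusted p = 0.000776). All 3 were curved, with most of the fall in the first 24 h, and none kept its slope call with the slide as a block. SMAD2 and SMAD4 were not called for slope (-0.07 and -0.12) but were curved, as were SMURF1 and SMURF2. SMAD6, the inhibitory SMAD of the BMP branch, was 691 early, 382 at 24 and 28 h and 1097 late (log2 0.67, limma adjusted p = 0.0294), and lost its call without the 60, the 66 or the 72 h array (limma adjusted p of 0.0568, 0.157 and 0.141). The repressor SKI rose by 0.50 and the SMAD partner FOXH1 by 0.45, though with spike-in scaling the slope of FOXH1 turned slightly below 0. With the slide as a block SKI kept its call (limma adjusted p = 0.00514) and SMAD6 (0.545) and FOXH1 (0.891) lost theirs.

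**Figure D2:**
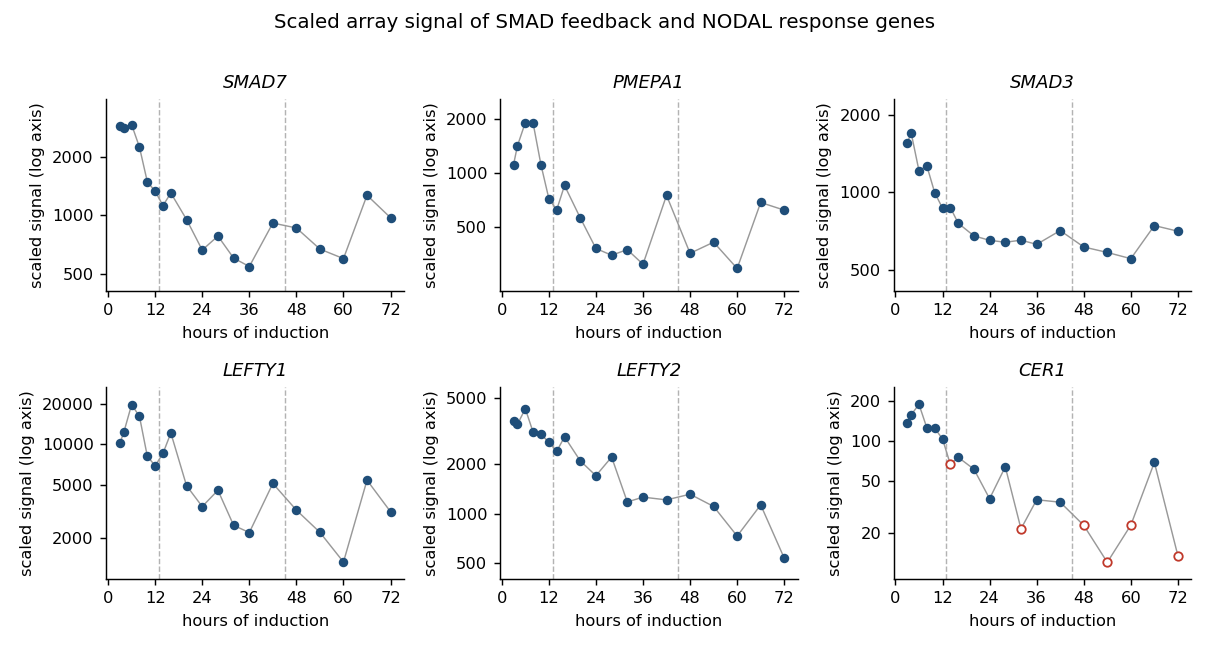
Signal (log axis) against hours of induction for SMAD7, PMEPA1, SMAD3, LEFTY1, LEFTY2 and CER1; filled points were well above background, open red points were not, and dashed lines mark the change of slide. All 6 are highest at 4 or 6 h, and SMAD7, PMEPA1 and LEFTY1 stand above both neighbouring arrays at 16, 42 and 66 h.

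Of 9 genes known to respond to activin or NODAL, none rose, 4 fell and 3 were curved. CER1, a secreted antagonist of NODAL, went from 160.4 to 27.8 (limma adjusted p = 2.34e-05 for the slope), with only the 66 h array of the late window above background. With the other 2 late arrays at the lowest signal above background there, it was at least 3.60-fold lower. LEFTY2 and LEFTY1, antagonists induced by the pathway itself, went from 3797 to 763 (log2 -2.31, limma adjusted p = 2.56e-09) and from 13497 to 2816 (log2 -2.26, limma adjusted p = 0.00018). The study had already reported that both decline over time in these same arrays, so their p-values are not independent evidence of a fall. LEFTY2 kept its call with the slide as a block (limma adjusted p = 0.00108), and CER1 and LEFTY1 lost theirs (0.380 and 0.289), the slope of LEFTY1 being -0.0327 per hour against -0.0368 without the block. LEFTY1 peaked at 6 h (19765), as did INHBA and CER1, and INHBB had by then dropped to 166. CCN2 and EOMES were curved and not called for slope, but passed for a fall without the 60 h array (CCN2, limma adjusted p = 0.0298) or the 66 h array (EOMES, 0.0405).

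The 4 proprotein convertases, which cut activin precursors to their mature form, included 3 that fell: PCSK7 by 0.66, PCSK5 by 0.47 and FURIN by 0.27 on the log2 scale, the last losing its call without the 72 h array (limma adjusted p = 0.0733). With the slide as a block PCSK7 kept its call (limma adjusted p = 0.0190) and PCSK5 (0.458) and FURIN (0.105) lost theirs. The slope per hour of FURIN was then -0.0121, against -0.00622 without the block, and that of PCSK5 -0.00442, against -0.00711. The fall of PCSK5 also rested on its brightest probe. With the mean of all its probes PCSK5 was not called (slope -0.00154 per hour, limma adjusted p = 0.479). Among 5 other follistatin-domain genes FSTL1 rose from 31592 to 64743 (log2 1.04, limma adjusted p = 4.51e-10) and kept the call with the slide block, the array median and the spike-in scaling. WFIKKN1, WFIKKN2 and FSTL5 were curved only, WFIKKN2 being above background on 12 arrays and FSTL5 on 5. Of the other ligands that follistatins bind, GDF11 rose by 0.42 (with spike-in scaling its slope was slightly below 0, and with the slide block its limma adjusted p was 0.848), and myostatin (MSTN) was well above background on none of the 19 arrays.

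Genes of the integrated stress response were added because INHBE is among the targets of that response in other cells. Of 15 genes, 3 rose, 7 fell and 7 were curved. DDIT3 rose from 614 to 1340.2 (log2 1.13), VLDLR by 0.72 and PPP1R15A by 0.52, while PSAT1 fell by 0.996, CHAC1 by 0.88 and SESN2 by 0.87. CEBPB was curved and not called for slope, but passed for a fall without the 16 h array (limma adjusted p = 0.0251). With the slide as a block none of the 15 rose and PSAT1 alone fell (limma adjusted p = 0.00339), although the slopes per hour of DDIT3 (0.0188 against 0.0175 without the block), VLDLR (0.0140 against 0.0134) and PPP1R15A (0.0203 against 0.0111) were no smaller. INHBE itself differed by -0.31 between these windows. The value was -0.18 without the 66 h array, -0.68 after scaling to the array median and -0.95 with spike-in scaling.

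The labelled cell type was checked on its markers. All 5 genes of the undifferentiated stem cell list were well above background on all 19 arrays, POU5F1 with a mean signal of 309098, and 3 of the 5 fell. Of 10 fibroblast markers, 9 were above background on at least 1 array, THY1, which hESCs also express, having the brightest probe, and of the 6 tested 3 fell and COL1A2 rose. COL1A1, COL1A2, COL5A2 and THY1 were above background on all 19 arrays, COL6A3 on none, and COL3A1 and LUM on 1 array each. Whether these human probes also read RNA of mouse feeder cells was not tested. Of 9 trophoblast markers 7 were tested and 4 rose, KRT7 having the brightest probe and TP63 above background on no array. Of 8 hepatocyte markers 7 were tested, 3 rose and AFP fell, and of 4 mesoderm markers 2 rose (MESP1 and HAND1). By the same rule 24.9% of all genes rose and 30.3% fell. These marker calls are those of the main setting, without the slide block or other scalings. Fewer cells that express a gene and less RNA per cell cannot be told apart in any of these values, and a brighter probe does not show a more abundant RNA.

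**Figure D3:**
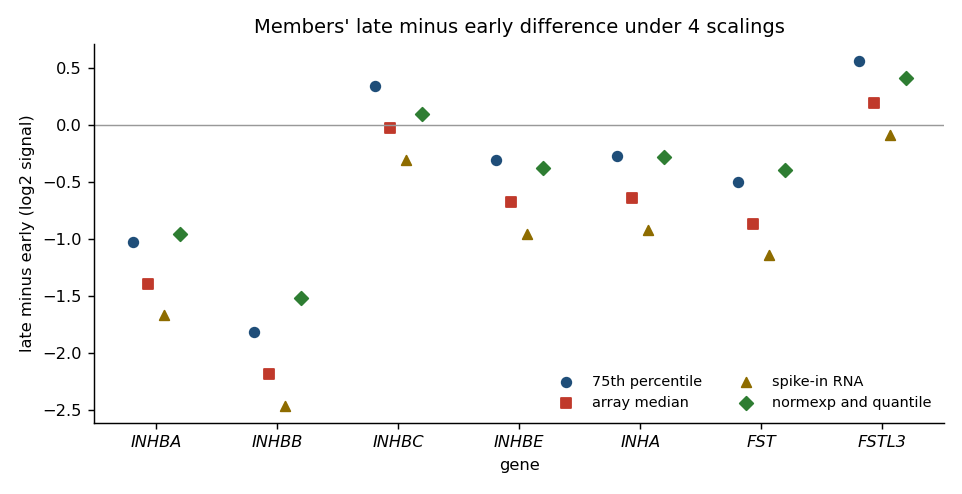
Log2 signal at 60 to 72 h minus that at 3 to 6 h for each of the 7 genes under 4 scalings of the arrays. INHBA, INHBB, INHBE, INHA and FST lie below 0 under each of the 4, whereas INHBC (0.34 to -0.30) and FSTL3 (0.56 to -0.09) cross 0 with spike-in scaling, INHBC (-0.030) also with the array median.

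The scaling mattered for the size of the differences between the ends of the course, as the plot of the 4 scalings shows. The median of all genes between these windows was -0.05 under the percentile scaling, -0.42 once arrays were scaled to their median and -0.695 once they were scaled to the spike-in RNA. Taken relative to that median, which makes the 3 scalings alike, the members differed by -0.97 (INHBA), -1.76 (INHBB), 0.39 (INHBC), -0.26 (INHBE), -0.22 (INHA), -0.45 (FST) and 0.61 (FSTL3).

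Which other genes followed the same courses was asked for the 5 genes above background on all arrays, by Pearson correlation over the 19 arrays with 13968 other genes of the same kind. INHBA was most like SARNP (0.97), C3orf52 (0.95) and EEF1E1 (0.95), and 184 genes exceeded 0.9. FSTL3 was most like ARL2, CUEDC2 and CRELD1 (each 0.97), and 104 genes exceeded 0.9. FST was most like MYL9 (0.85), CA2 (0.85) and YIPF1 (0.84), INHBC like ZNF737 (0.91), LBX2-AS1 (0.90) and CLDN19 (0.90), and INHBE like CEP120 (0.85), GIT1 (0.83) and KIF21B (0.82). For INHBB and INHA, which fall outside that rule, the nearest were USP44 (0.89), LFNG (0.89) and EPOP (0.88), and SLC35A3 (0.87), FCHSD2 (0.84) and IFT74 (0.84). USP44, LFNG and EPOP were each highest and lowest within a narrower range than INHBB.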

How the data were processed

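Total RNA of 19 KhES-3 samples was labelled with Cy3 and hybridised to 60K human arrays, 1 array for each time. The authors deposited, for each array, the intensity table of Agilent Feature Extraction 10.10.1.1 (per the file headers), in which the processed signal is background-subtracted on a linear scale, and its score columns flag (0 or 1) whether a spot was well above background or an outlier. The deposited series table holds processed intensity multiplied by 1 factor per array, from 0.905 to 1.38, blank where a probe was not well above background; it served as an alternative.

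Here log2 processed signal minus each array's 75th percentile over its spots other than controls (62976 spots in all) was used. Outlier spots (0.632%) were left out, no spot was saturated, and spots of 1 probe were averaged, giving 50683 probes. Of these, 28174 were named through the RefSeq table (20503 genes), and a gene with several probes is given by 1. Probes that passed the background flag on 5 or more arrays (32113 probes, 16694 genes) were fitted in limma 3.58.1 (R 4.3.3) with hours as a line and as a cubic, with moderated tests and Benjamini-Hochberg adjustment over all probes. The tests were checked on simulated data. With 1 array a time, p-values measure scatter around the fitted course, and precision is limited by how few arrays there were.

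The members, gene lists and windows were chosen with earlier results of these data known, so the 7 members got no test. Named in each pathway list were up to 3 largest rises, 3 largest falls and 3 curved courses, and for each member above background on all arrays the 3 genes most correlated with it. Alternatives were other scalings, normexp (offset 50) with quantile normalization, other filters, all probes of a gene, slide as a block, log2 hours and leaving out arrays. Proteins and probe sequences were not used here. The values of 1 gene of the lists are not reported here.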

Additional observations from a re-analysis of the deposited data

How the results depend on the processing

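No paired analysis was possible because a single array stood for each time. Of 259 values for the members and the counts of pathway genes under the alternatives, 226 stayed within the tolerance (1 SD of a gene's arrays around its cubic, 0.39 for INHA and 0.81 for INHBB, or 1.5 times for a count) and 33 moved beyond it; of 1124 slopes of named pathway genes, 1043 stayed on their side of the threshold, 66 lost and 12 gained a call, and 3 turned with a call in one of the settings compared. Of the 1043, 37 changed sign, with no call in either setting. The 3 turned with spike-in scaling, where slopes per hour were -0.00081 for FOXH1, -0.0013 for GDF11 and -0.0078 for WFIKKN1. Over all probes the main setting called 9926 rises and 7290 falls (57.7% rising), the array median 4581 and 11260 (28.9%), spike-in scaling 1445 and 11415 (11.2%), normexp 7179 and 7184, and the slide block 1517 and 1761. In the pathway lists 3 genes rose with the array median, 1 with spike-in scaling and 3 with the slide block, which also left 6 falling and 17 curved.

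Late minus early differences (log2) that moved were, with the array median, -1.39 for INHBA, -0.030 for INHBC, -0.68 for INHBE, -0.87 for FST and 0.19 for FSTL3. With spike-in scaling they were -0.92 for INHA, -1.67 for INHBA, -0.30 for INHBC, -0.95 for INHBE, -1.14 for FST and -0.088 for FSTL3. With normexp they were 0.10 for INHBC and 0.41 for FSTL3. As 72 h minus 3 h they were -1.37 for INHBA, -3.61 for INHBB, 0.59 for INHBC and -0.97 for FST. Without the 14, 16 and 72 h arrays, left out after seeing the data, INHBA gave -0.82, and the lists 7 rising, 19 falling and 31 curved. Between windows, normexp gave -1.87 for the early fall of INHBB, 0.51 and -0.79 for the rise and fall of INHA and 0.90 for the late rise of FSTL3, and, within the tolerance, 1.08 for the return of INHBB. Also within it, late minus early was -0.64 for INHA with the array median, -0.071 in the deposited table and -0.018 without the 14, 16 and 72 h arrays, which gave -0.32 for FST, and as 72 h minus 3 h it was -0.43 for INHA and -0.073 for INHBE. Spike-in scaling gave -2.23 for the fall of INHA and 0.30 for the rise of FSTL3, and the array median -0.78 for its early dip. Except where a setting used fewer arrays, the cause was not tested.

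Leaving out 1 array at a time gave late minus early ranges of -0.53 to 0.16 for INHA, -1.16 to -0.82 for INHBA, -2.54 to -1.21 for INHBB, 0.26 to 0.44 for INHBC, -0.40 to -0.18 for INHBE, -0.67 to -0.32 for FST and 0.49 to 0.68 for FSTL3. The early fall of INHBB ran from -3.45 to -2.13 and its return from 1.55 to 2.16, the rise of INHA from 0.82 to 1.52 and its fall from -1.501 to -1.10, and the dip of FSTL3 from -0.53 to -0.46 and its rise from 0.97 to 1.16. Rising pathway genes numbered 8 to 10, falling 19 to 23 and curved 30 to 35. INHBB at 14 and 16 h and INHA at 72 h were not well above background, so their values there are uncertain. The lowest signals well above background on those arrays were 73.5 (14 h), 53.7 (16 h) and 52.4 (72 h). As for CER1, these can serve as upper bounds.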
